A study of Rattus norvegicus with 138 samples.

Results

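Serum levels of 3 mature miRNAs linked to the pancreas, miR-375-3p, miR-217-5p and miR-7a-5p, were followed in rats carrying metal pellets in muscle; they are 3 of the 471 miRNAs in the count table and were taken by name. miR-375-3p and miR-7a-5p stand for the islet, the hormone-secreting part of the pancreas, and miR-217-5p for the acinar tissue that makes digestive enzymes. The animals were male Sprague-Dawley rats, 3 months old at surgery per the series text, and each carried 4 pellets, 2 in each calf muscle (gastrocnemius). The implanted metals were depleted uranium (DU), lead (Pb), tungsten (W), cobalt (Co), nickel (Ni), copper (Cu), iron (Fe) and aluminium (Al), and tantalum (Ta) served as the implanted control for the surgery. No library from a rat without a pellet was analysed here, so every group shares the operation and a metal implant. Serum was taken 1, 3, 6 and 12 months after implantation, 1 library per sample, in 35 groups: 33 groups had 4 libraries, and W and Ta at 6 months had 3 each. Ni at 12 months was not analysed here. The labels number the libraries of a group but do not tie a number to a rat, so the p-values measure the spread between these serum libraries.

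miR-375 is among the most abundant miRNAs of islet cells, where work in mouse showed that it restrains insulin release and maintains islet cell mass; other endocrine cells and gut epithelium also make it. miR-7a is enriched in islets, brain and pituitary, and in mouse beta cells it limits glucose-stimulated insulin secretion. miR-217 is a marker of exocrine pancreas, made from the same genomic neighbourhood as miR-216a and miR-216b, and circulating miR-217 and miR-216a rise in rat serum after acinar injury.

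The mature sequences, taken from RefSeq (build GRCr8), are shown because they fix which RNA each count stands for and which miRNAs could share it. Bases 2 to 8, the seed that pairs with target mRNAs, are in capitals, and all sequences run 5′ to 3′.
miR-375-3p: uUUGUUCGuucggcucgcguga
miR-217-5p: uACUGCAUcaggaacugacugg
miR-7a-5p: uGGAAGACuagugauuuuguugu
miR-7b: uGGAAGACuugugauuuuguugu
miR-216a-5p: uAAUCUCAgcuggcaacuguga
miR-216b-5p: aAAUCUCUgcaggcaaauguga
Of the 471 names in the table, 434 matched a RefSeq mature sequence. Among those, the seeds of miR-375-3p and of miR-217-5p occurred once. The seed of miR-7a-5p was shared with miR-7b alone, which differs from it by 1 base (A10U, counted from the 5′ end of miR-7a-5p). GC content was 54.5% for miR-375-3p, 50% for miR-217-5p and 34.8% for miR-7a-5p, against a median of 47.8% over the matched miRNAs. miR-217, miR-216a and miR-216b lie on chromosome 14, and miR-375 on chromosome 9. The mature miR-7a-5p comes from 2 loci, on chromosomes 1 and 17.

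The counts of miR-7a-5p were nearly all even numbers. Of its 97 counts above 0, 94 were even, against 62 of 130 for miR-375-3p and 18 of 33 for miR-217-5p. Among the 255 miRNAs with a count in at least 20 libraries, 21 had 90% or more even counts and the other 234 had a median of 51.8%. Of those 21 miRNAs, 7 had 2 or more RefSeq loci, and of the 212 others with a RefSeq match, 9 had. Whether each read was entered once per locus was not tested. Values of miR-7a-5p are given as deposited. The ratio of miR-375-3p to miR-7a-5p counts had a median of 3.62 over the 97 libraries with both as deposited, and 7.24 with the miR-7a-5p counts halved.

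Library totals ranged from 518 to 6406599 counts (median 685384.5), and 6 libraries held fewer than 20000 counts: 1 at 1 month, 4 at 3 months and 1 at 12 months. The median total was 1114449 counts at 1 month, 286094 at 3 months, 1302182.5 at 6 months and 558752.5 at 12 months. The table holds no count of 1, so a 0 can stand for 0 or for 1 read. Levels are given as CPM, each library's counts scaled to a common total with TMM factors, and a test is called at an adjusted p under 0.05 over all miRNAs tested in that comparison (edgeR quasi-likelihood test, Benjamini-Hochberg). Serum level reflects release, clearance and the share of all other miRNAs together, so fewer releasing cells and less release per cell cannot be told apart.

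The 3 miRNAs differed widely in how often they were seen. miR-375-3p had a count in 130 libraries, all but 8, with a median of 631 CPM over all libraries and 100356 counts in sum. miR-7a-5p had a count in 97 libraries, with a median of 108 CPM and 26971 counts in sum. miR-217-5p had a count in 33 libraries and 1761 counts in sum. The islet miRNA miR-375-3p was thus a regular constituent of these sera, at a median rank of 64 among the detected miRNAs of a library, while the acinar miRNA was absent from the counts of most. Every one of the 97 libraries with miR-7a-5p and of the 33 with miR-217-5p also had miR-375-3p.

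miR-375-3p, the islet miRNA, was called higher or lower than in Ta for no metal at any month. None of the 31 comparisons of a metal with Ta at a single month called it, where 0.193% of all tests over all miRNAs were called. At an unadjusted p under 0.05 there was 1 of 31, where 10.5% of all tests were under it, and DESeq2 also called none. Its log2 fold changes over Ta ran from -1.88 to 1.29, with standard errors between 0.63 and 1.62. The comparisons averaged over months called it for none of 8 metals (1.09% of all such tests called, and 1.83% of the 1534 among these 2560 tests that had no group without a count on both sides), and the 4 comparisons of all metals pooled with Ta called it at no month (2.89% called). At an unadjusted p under 0.05 there were 1 of these averages (10% of all such tests) and 0 of the pooled comparisons. The 8 tests of whether a metal's difference from Ta changed over the months called it for none (1.64% called), also with 0 at an unadjusted p under 0.05.

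DU had the lowest group median of miR-375-3p at 1, 3 and 12 months, without passing the test, while at 6 months Pb and Ni were lower. The rank at 3 months rests on DU replicate 4, at 0 CPM in a library of 518 counts. The other DU libraries of 3 months had 171, 1110 and 1346 CPM. Ni libraries of 3 months had 1472, 456, 1074 and 381 CPM, the value of 1074 in a library of 3343 counts. Ta replicate 3 of 3 months was also at 0 CPM, in a library of 1645 counts. At 12 months the DU libraries had 478, 485, 864 and 191 CPM, against 721, 2037, 1551 and 1509.5 CPM in the Ta libraries. The groups overlapped, since 1 DU library lay above the lowest Ta library. The log2 fold change was -1.78 ± 0.70 (SE, n = 4 each), with an adjusted p of 0.227 and an unadjusted p of 0.0159. Without any 1 library of that month's 2 groups it lay between -1.66 and -1.02. The smallest group, which sets the low-count filter, was also smaller in these fits, and the part of the filter in the shift was not tested. At 1 month the DU libraries had 396, 259, 158 and 226 CPM, against 384, 292, 420 and 1123 CPM in the Ta libraries, and the log2 fold change was -1.01 ± 0.64 (adjusted p = 0.504). At 3 months the medians were 640 CPM in DU and 944 CPM in Ta libraries, and at 6 months 329 CPM in DU and 681 CPM in Ta libraries (log2 fold change -0.010 ± 1.47, adjusted p = 1, and -1.38 ± 1.51, adjusted p = 0.958). Averaged over months it was -1.12 ± 0.55 for DU (adjusted p = 0.448, unadjusted p = 0.0431). Over all months the median was 328 CPM in 16 DU libraries and 736 CPM in 15 Ta libraries.

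Ni at 6 months was the single group whose miR-375-3p range lay wholly outside that of Ta. Its libraries had 320.4, 216.8, 281.2 and 100.3 CPM, against 681, 1639 and 561 CPM in the Ta libraries. All 4 Ni libraries were lower, as was the case for 4.37% of the 343 miRNAs with a count in these groups. The fitted log2 fold change was -1.88 ± 1.52 (adjusted p = 0.944). In Pb at 6 months 1 library stood far above the others: the libraries had 9.64, 2817, 0 and 0 CPM, and the log2 fold change over Ta rested on the 1 high library. That log2 fold change was -1.14 ± 1.51 (adjusted p = 0.753). Without the high library edgeR called Pb lower at 6 months (-8.13 ± 1.79, adjusted p = 0.00467, against 3 Ta libraries) and on average over months (-1.85 ± 0.51, adjusted p = 0.0312). With all libraries, 8 of 272 miRNAs were called for Pb at 6 months and 14 of 320 in its average over months. The share of all miRNAs called without the high library is not given here.

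**Figure D1:**
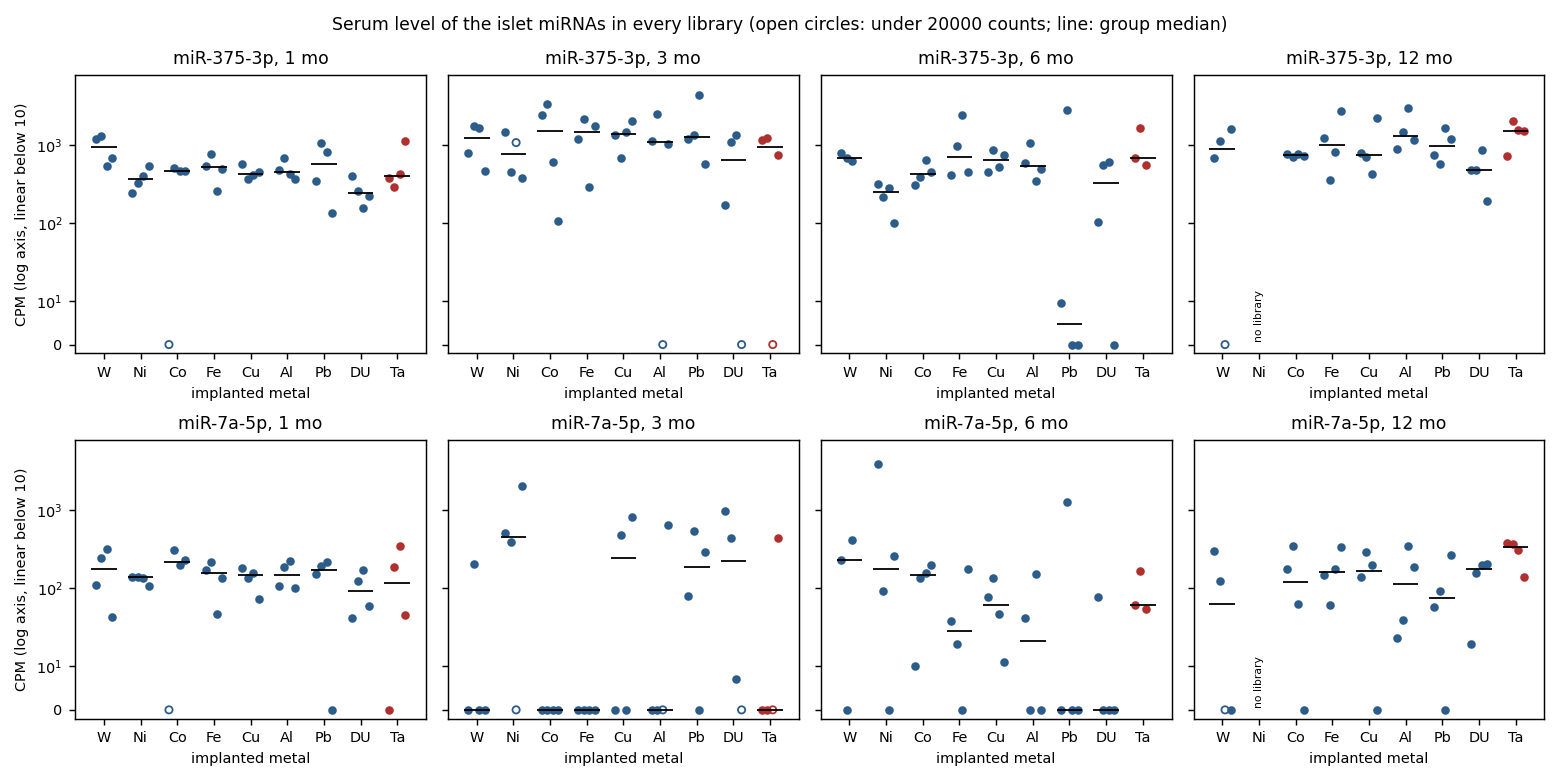
CPM of miR-375-3p (upper row) and miR-7a-5p (lower row) in every library by implanted metal, with 1 panel per month and Ta at the right; the vertical axis is logarithmic and linear below 10 CPM, bars are group medians and open circles are libraries with fewer than 20000 counts. miR-375-3p lay above 100 CPM in nearly every library of adequate depth, while miR-7a-5p was at 0 in 22 of 36 libraries at 3 months.

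miR-7a-5p, the second islet miRNA, was likewise called for no metal at any month in 31 comparisons, with 2 at an unadjusted p under 0.05. Those 2 were Co and Fe at 3 months, where all 8 libraries were at 0. The Ta libraries of that month had 0, 0, 0 and 438 CPM, so 1 Ta library alone had counts, and the fitted values there depend on the prior count and are no measure of a fold. DESeq2 called both (adjusted p = 5.86e-09 for Co and 1.64e-10 for Fe), where it called 5.04% of all tests in the 31 comparisons. edgeR called it in none of the 8 comparisons averaged over months and none of the 4 pooled ones, with 2 averages and 0 pooled ones at an unadjusted p under 0.05. DESeq2 called Co and Fe among the 8 averages, where it called 15.1% of all tests, and both averages include the month without counts.

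At 12 months the order of the groups for miR-7a-5p put Ta at the top. The Ta libraries had 380, 368, 314 and 142 CPM, and all 7 metals had a log2 fold change below 0 there, from -1.33 to -0.96 with standard errors between 1.467 and 1.501. None was called (smallest adjusted p = 0.711), and the pooled log2 fold change was -1.11 ± 1.00 (adjusted p = 0.715). The 7 comparisons share the 4 Ta libraries. The highest single value of miR-7a-5p was 3867 CPM in a Ni library at 6 months; the other 3 Ni libraries there had 92.0, 0 and 261 CPM, against 61.5, 169 and 55.0 CPM in the Ta libraries. That log2 fold change was 3.798 ± 2.77 (adjusted p = 0.842).

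**Figure D2:**
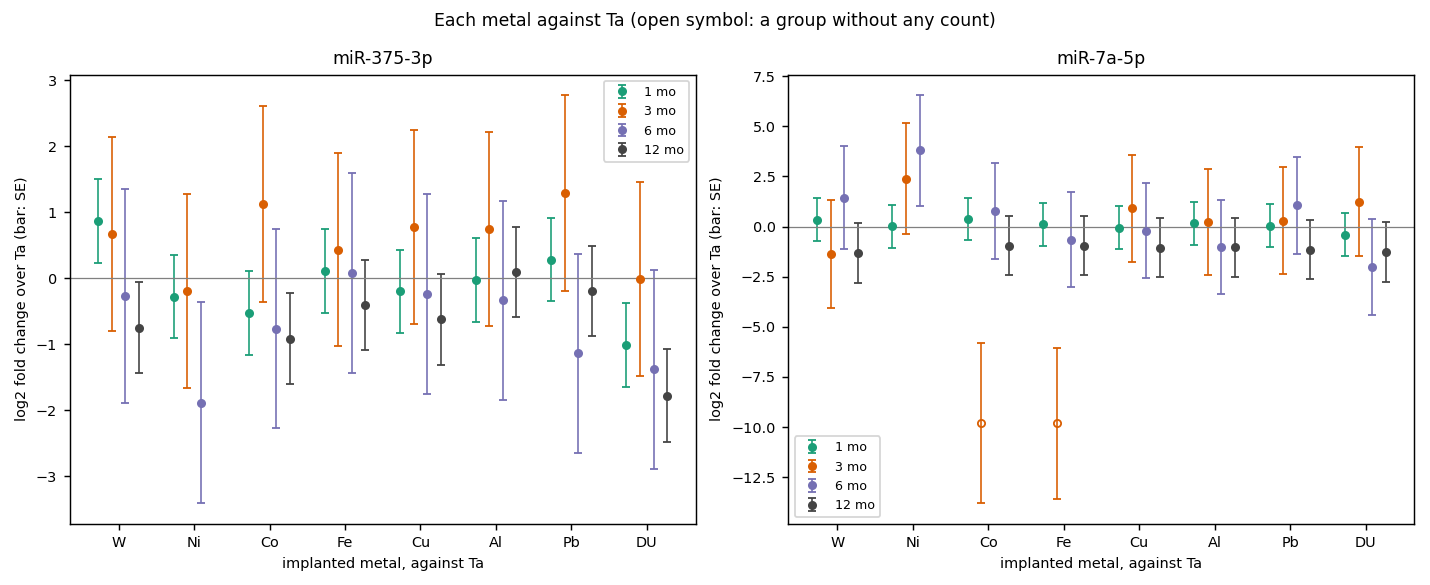
Log2 fold change of each metal over Ta at each month for miR-375-3p (left) and miR-7a-5p (right), from edgeR, with bars for the standard error and open symbols where a group has no count. For miR-375-3p the values lay between -1.88 and 1.29 and no point passed the test; the 2 open points for miR-7a-5p are the fitted values of Co and Fe at 3 months, where both groups were at 0, and they depend on the prior count.

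miR-217-5p, the acinar miRNA, was seen in too few libraries for a comparison of levels between metals. It had a count in 24 of 35 groups, of which 16 had it in 1 library, 7 in 2 and 1 in 3 libraries. No group had it in all 4. In sum it was seen in 5 of 12 Ni libraries, 5 of 16 Al, 5 of 16 Cu, 3 of 15 W and 3 of 16 libraries each for Co, Fe, Pb and DU, against 3 of 15 Ta libraries. It did not pass the low-count filter at 3 months. None of the 23 comparisons that could be tested at the other months called it, with 3 at an unadjusted p under 0.05, each between a metal group at 0 in all its libraries and a Ta group with 1 library above 0. DESeq2 called 3 of the 23, where it called 5.04% of all tests in the 31 comparisons: Fe, Pb and DU at 6 months, each at 0 in all 4 libraries while 1 of 3 Ta libraries had counts. Of the 8 averages over months, 6 could not be tested because the metal and Ta each had a month without a count, and edgeR called neither of the other 2. The 3 pooled comparisons called it at no month, with 1 at an unadjusted p under 0.05 (6 months, adjusted p = 0.214), and without the 1 positive Ta library that difference could not be tested.

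The highest miR-217-5p counts came from libraries of different groups. An Al library at 3 months had 293 counts (429 CPM) while the other 3 Al libraries of that month had 0. A Ni library at 6 months had 263 counts (288 CPM), an Al library at 6 months 244 counts (156 CPM), and a Cu library at 6 months 130 counts (41.5 CPM). A Pb library at 12 months had 106 counts (120 CPM) and a Ta library at 6 months 102 counts (95.1 CPM). These 6 were the libraries with over 100 counts, and they came from 5 implants including the control. The Ni group at 6 months also had libraries of 7 and 26 counts, and the Pb group at 12 months had another of 38 counts. By CPM the Cu library at 6 months was exceeded by libraries not listed, such as a Cu library at 12 months with 83.3 CPM.

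The islet and acinar signals could be set side by side in the 33 libraries with miR-217-5p. The ratio of miR-375-3p to miR-217-5p counts ranged from 0.753 to 139 with a median of 22.7. The acinar miRNA exceeded the islet one in 1 library, the Ni library at 6 months with 263 counts of miR-217-5p and 198 of miR-375-3p. The same library held 38 counts of miR-216a-5p and 31 of miR-216b-5p, both from the genomic neighbourhood of miR-217. It was the only library with all 3 acinar miRNAs: miR-216a-5p had a count in 4 libraries of the series and miR-216b-5p in 1. The libraries with miR-217-5p had a median total of 1078901 counts, against 579976 in those without.

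**Figure D3:**
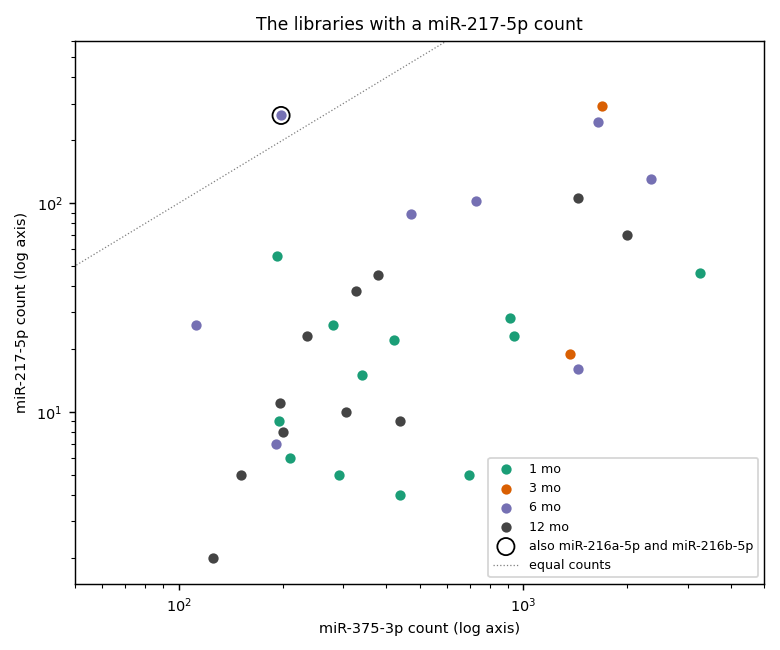
Counts of miR-217-5p against counts of miR-375-3p in the 33 libraries with a miR-217-5p count, both axes logarithmic, coloured by month, with equal counts as a dotted line and a ring around the library that also holds miR-216a-5p and miR-216b-5p. All but the ringed Ni library at 6 months lie below the line of equal counts.

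The log2 ratio of miR-375-3p to miR-217-5p differed for no metal and between no months after adjustment over the 12 comparisons (two-sided permutation tests over 128 libraries). The smallest p was at 3 against 1 month, where the mean log2 ratio was 9.58 at 3 months and 8.10 at 1 month (permutation p = 0.0243, adjusted p = 0.292). The largest difference was that of Ni, with a mean of 6.77 against 8.59 for Ta over the months that both have (adjusted p = 0.759). These means include libraries without miR-217-5p, in which the ratio is set by the miR-375-3p count and by the prior count. That count follows both the level of miR-375-3p and the depth. Since 33 libraries held miR-217-5p, the tests mostly compared miR-375-3p counts.

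From each month to the next, the group medians of miR-375-3p differed in the same direction in every metal. Its median was 433 CPM at 1 month (36 libraries, range 0 to 1302), 1146 CPM at 3 months (36, 0 to 4361), 507 CPM at 6 months (34, 0 to 2817) and 795 CPM at 12 months (32, 0 to 3004). The ranges overlapped between all months. The group median was higher at 3 than at 1 month in 9 of 9 metals (Ta included), lower at 6 than at 3 months in 9 of 9, and higher at 12 than at 6 months in 8 of 8. At 12 against 1 month it was higher in 7 of 8 and lower in W. At 3 against 1 month the log2 fold change was 1.33 ± 0.38 (adjusted p = 0.00212), and in this comparison 43.8% of 320 miRNAs were called, 26 higher and 114 lower. The higher calls made up 8.12% of the miRNAs tested. For 118 of the 320 a group without any count stood on both sides of the comparison; such a contrast is undetermined and cannot be called, and of the other 202 miRNAs 69.3% were called. The median of all fitted values was -1.62, undetermined ones included, and miR-375-3p ranked 25 from the top of 320. With RLE size factors in place of TMM 35 were called higher and 87 lower, the median of all was -1.28 and miR-375-3p was at 2.20.

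The later steps of miR-375-3p did not pass the test as fitted. The log2 fold change was -0.94 ± 0.39 at 6 against 3 months (adjusted p = 0.0795) and 0.65 ± 0.39 at 12 against 6 months (adjusted p = 0.461). At 12 against 1 month it was 1.05 ± 0.38 (adjusted p = 0.0517). Of all 320 miRNAs, 18.8% were called at 6 against 3 months (12.8% higher, 5.94% lower), 9.06% at 12 against 6 months (7.81% higher, 1.25% lower) and 11.6% at 12 against 1 month (4.69% higher, 6.88% lower). Of the miRNAs whose contrast was determined, the shares were 43.2% of 139, 15.9% of 182 and 17.3% of 214. DESeq2 called 57.1% of 315 miRNAs at 3 against 1 month, 39.4% at 6 against 3, 26.7% at 12 against 6 and 18.7% at 12 against 1 month. At 6 against 3 months miR-375-3p was called lower by DESeq2, with RLE size factors and without the libraries under 20000 counts. Without the high Pb library at 6 months (replicate 2) the values were -1.89 at 6 against 3 months and 1.61 at 12 against 6 months, and both were called. In the Ta libraries alone the log2 fold change at 3 against 1 month was 0.67 ± 1.08 (adjusted p = 0.924).

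Depth moved with the months in the opposite sense to miR-375-3p, being lowest at 3 months. In libraries of at least 500000 counts its median was 433 CPM at 1 month (28 libraries), 909 at 3 months (12), 553 at 6 months (29) and 781 at 12 months (18). In libraries of 20000 to 500000 counts it was 494 CPM at 1 month (7 libraries), 1282 at 3 months (20), 312 at 6 months (5) and 864 at 12 months (13). The median was thus above that of 1 month at 3 and 12 months in both depth classes. The month of sampling and the handling of the libraries of a month cannot be told apart.

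**Figure D4:**
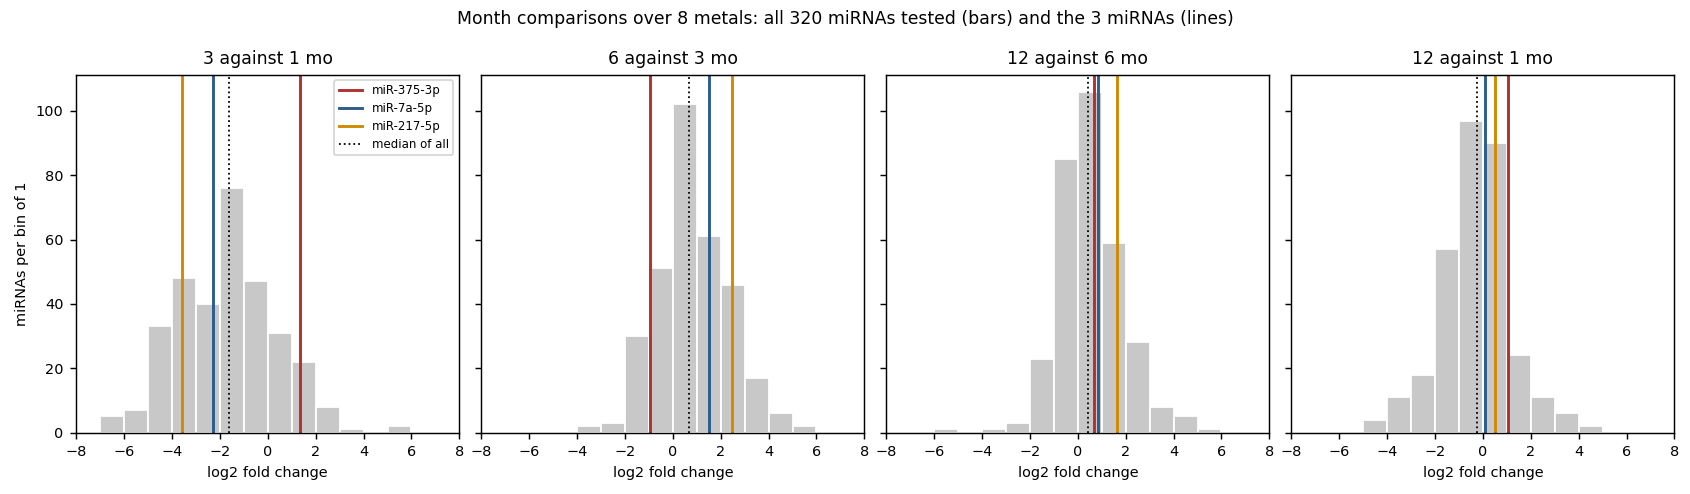
Distribution of log2 fold changes of all 320 tested miRNAs (grey bars, bins of 1) in the 4 comparisons between months, averaged over the 8 metals with all months, with coloured lines at the values of the 3 miRNAs and a dotted line at the median of all miRNAs, undetermined contrasts included. At 3 against 1 month miR-375-3p lay at 1.33 while the median of all was -1.62 and miR-7a-5p and miR-217-5p lay at -2.29 and -3.59.

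miR-7a-5p, the other islet miRNA, was seen least often at 3 months, when libraries also held the fewest miRNAs. The median number of miRNAs with a count per library was 216 at 1 month, 99.5 at 3, 170 at 6 and 186.5 at 12 months. miR-7a-5p had a count in 33 of 36 libraries at 1 month, 14 of 36 at 3 months, 23 of 34 at 6 months and 27 of 32 at 12 months. Fewer libraries had it at 3 than at 1 month in 8 of 9 metals. The log2 fold change at 3 against 1 month was -2.29 ± 0.80 (adjusted p = 0.0131), in a comparison where 35.6% of miRNAs were called lower. Co and Fe at 3 months were without a count, and their part in the value was not tested. With 1 term per metal and 1 per month in place of group means it was 0.060 (adjusted p = 0.956), and with RLE size factors it was -2.01 (adjusted p = 0.0609). Without the 1 Al or the 1 Ta library that had it at 3 months (replicate 4 of each) the value was -3.64 or -3.56. The other month comparisons did not call it, with 1.53 ± 0.77 at 6 against 3 months (adjusted p = 0.199), 0.85 ± 0.71 at 12 against 6 months and 0.09 ± 0.68 at 12 against 1 month. At 6 against 3 months the comparison could not be tested without Pb replicate 2 or DU replicate 1 of 6 months, each the only library of its group with a count. The value was 2.47, 2.62 and 2.70, and called higher, without W replicate 2, Ta replicate 4 or Al replicate 4 of 3 months. At 12 against 6 months it was 2.26, and called higher, without Pb replicate 2 of 6 months.

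Where miR-7a-5p was seen at 3 months, its level was not low. The 14 libraries with a count had a median of 464 CPM, against 152 CPM in the 33 such libraries at 1 month. It was seen at 3 months in 10 of 12 libraries of at least 500000 counts, with a median of 416 CPM over the 12, and in 4 of 20 libraries of 20000 to 500000 counts. At 1 month it was seen in 27 of 28 and 6 of 7 libraries of these depths. Thinned to 100000 counts, it would be expected in 93.6% of libraries at 1 month, 45.6% at 3 months, 65.3% at 6 months and 84.9% at 12 months.

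miR-217-5p was seen in 12 of 36 libraries at 1 month, 2 of 36 at 3 months, 8 of 34 at 6 months and 11 of 32 at 12 months. Thinned to 100000 counts, it would be expected in 25.0%, 4.79%, 20.1% and 30.2% of libraries at these months. The 2 libraries at 3 months were 1 Cu and 1 Al library, and fewer libraries had it at 3 than at 1 month in 7 of 9 metals. Over all miRNAs, the median number with a count per library was 99.5 at 3 months and 216 at 1 month. For miR-217-5p edgeR gave a log2 fold change of -3.59 ± 1.03 at 3 against 1 month (adjusted p = 0.00225), a fitted value that depends on 6 groups without a count. Leaving out any 1 of 6 single positive libraries at 1 month (Ta replicate 4, W replicate 2, Cu replicate 3, Al replicate 3, Pb replicate 4 or DU replicate 1) left a group without a count on both sides, so that the comparison could not be tested. The same held for 6 against 3 and 12 against 6 months with all libraries, and at 12 against 1 month the log2 fold change was 0.49 ± 2.17 (adjusted p = 1). DESeq2 and the fit with 1 term per metal and 1 per month called miR-217-5p higher at 6 against 3 months (6.49 ± 2.06 and 3.17 ± 1.26, adjusted p = 0.00491 and 0.0398).

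**Figure D5:**
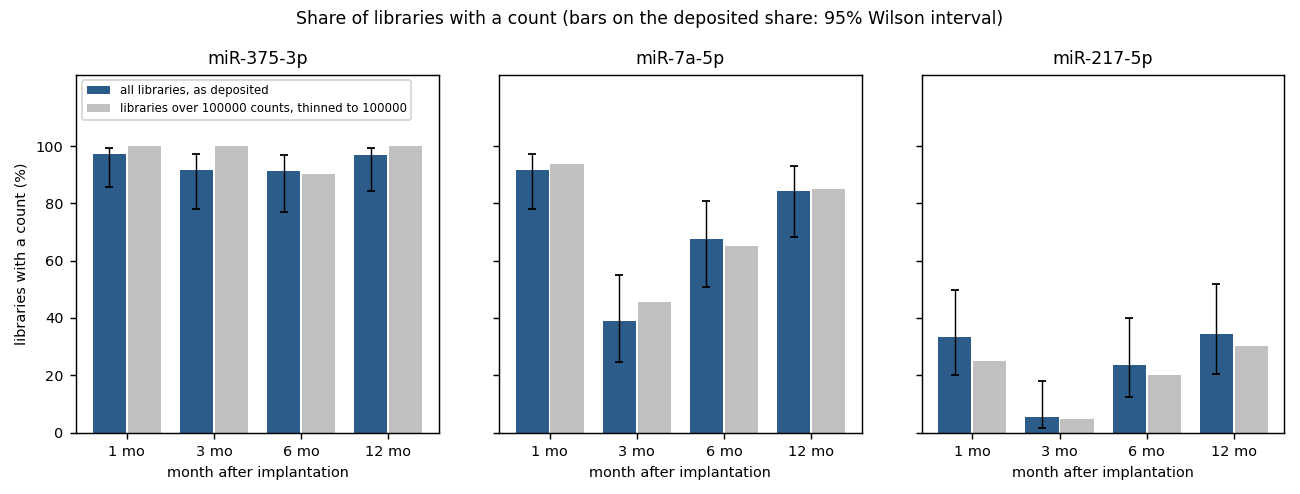
Share of libraries with a count at 1, 3, 6 and 12 months, as deposited with 95% Wilson intervals (blue) and expected after thinning each library of at least 100000 counts to 100000 (grey). miR-375-3p stayed above 90% throughout, and miR-7a-5p and miR-217-5p were lowest at 3 months, at 38.9% and 5.56% of libraries. The median number of miRNAs with a count per library was also lowest at 3 months (99.5).

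Companion miRNAs from the same precursors or tissues that are in the count table ranged from a count in 1 library to a count in every library. The other arms miR-375-5p and miR-217-3p, and miR-216a-3p and miR-216b-3p, are not in the table. miR-7b, the brain-enriched relative of miR-7a, had a count in 2 libraries (13 counts in sum), and the other arms miR-7a-1-3p and miR-7a-2-3p in 14 libraries and 1. Of the islet and endocrine list, miR-184 was seen in 106 libraries, miR-204-5p in 71, miR-802-5p in 42 and miR-129-5p in 5. miR-30d-5p, common to many tissues, was in every library. Of the acinar and pancreas list, miR-148a-3p, which liver also makes, was in 134 libraries. At 3 against 1 month, 1 of 6 tested members of the islet and endocrine list was called higher and 2 lower: miR-30d-5p rose by 1.43 ± 0.26 on the log2 scale, while miR-184 fell by 3.15 and miR-204-5p fell by 4.65. Of the acinar and pancreas list 1 of 2 tested members was called, miR-148a-3p at -0.90 ± 0.32 (adjusted p = 0.0142). The other 3 members of the islet and endocrine list and the other 1 of the acinar and pancreas list had undetermined contrasts. Among all miRNAs there were 26 higher and 114 lower calls.

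The summed levels of marker lists of other tissues differed in size. The summed level of the gut and epithelial list (7 of 8 miRNAs in the table, miR-192-5p and the miR-200 family among them) had a median of 36607 CPM at 1 month, 25963 at 3 months, 40313 at 6 months and 60229 at 12 months. miR-192-5p made up most of it, with medians of 35717.5, 24737.5, 39304 and 59079 CPM at these months. miR-200a-3p had a median of 426 CPM over all libraries. At 3 against 1 month 1 of the list's 5 members with a determined contrast was called higher, miR-194-5p, and 1 lower, miR-192-5p. The brain and pituitary list summed to a median of 4266 CPM over all libraries, and its member miR-128-3p alone had a median of 3962 CPM. The islet and endocrine companion list summed to 5028 CPM, where miR-30d-5p alone had 4589 CPM. miR-375-3p and miR-7a-5p together had a median of 814 CPM. Of the brain and pituitary list miR-128-3p alone could be tested between months, and it was not called (-0.18 ± 0.41 at 3 against 1 month). The liver miRNA miR-122-5p, whose median over all libraries was 44571 CPM, rose at 3 against 1 month by 1.16 ± 0.30 on the log2 scale (adjusted p = 0.000639). Of the red cell list, edgeR called miR-451-5p higher (1.97 ± 0.36, adjusted p = 3.47e-06) and miR-144-5p lower (-2.15 ± 0.85, adjusted p = 0.0307). It did not call miR-144-3p (-0.89 ± 0.48) or miR-16-5p (-0.11 ± 0.42). The part of these tissues in the level of the 3 miRNAs was not tested.

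The miRNAs most like miR-375-3p over the 132 libraries of at least 20000 counts, among 319 others, were miR-92a-3p, let-7f-5p and let-7b-5p (Spearman rho of log2 CPM 0.49, 0.49 and 0.45). For miR-7a-5p they were miR-203a-3p, miR-16-5p and miR-101a-3p (0.40, 0.40 and 0.39). For miR-217-5p they were miR-130b-3p, miR-1247-3p and miR-542-5p (0.61, 0.58 and 0.53), which had a count in 21, 14 and 13 libraries, so that shared zeros set most of the ranks. The libraries share their totals, months and depth, and these values are descriptions. None of the 3 miRNAs was among the 3 nearest of another. Between miR-375-3p and miR-7a-5p, Pearson's r was 0.10 (p = 0.267) and Spearman's rho -0.0034 (p = 0.968) over 132 libraries, by permutation tests, and r was -0.02 without the 2 libraries farthest from the median. Within months r was 0.34 at 1 month, -0.24 at 3 months, 0.38 at 6 months and -0.13 at 12 months (adjusted p between 0.365 and 0.860 over 15 correlations, permutation tests). Between miR-375-3p and miR-217-5p r was 0.026 (p = 0.776) and rho -0.074 (p = 0.400, permutation tests). Between miR-217-5p and miR-7a-5p r was 0.0066 (p = 0.940) and rho -0.030 (p = 0.735, permutation tests).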

How the data were processed

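Small RNA from rat serum was sequenced, per the labels' protocols, after library preparation with a Norgen small RNA kit on a NextSeq instrument. The authors deposited raw counts per mature miRNA as 1 table of 471 miRNAs with 1 column per library. The genome build is Rnor_6.0 per the submitters' processing notes. How reads were aligned and counted, and against which miRBase release, is not given in the sources used here. Every column name matched the title of 1 sample. No 2 columns were identical.

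Computed from the counts: the low-count filter filterByExpr (minimum count 10, total 15), TMM factors (0.38 to 2.44) and quasi-likelihood tests in edgeR 4.0.16 under R 4.3.3, with 1 mean per metal and month and Benjamini-Hochberg adjustment over all miRNAs tested. A contrast of group means with a group without any count on both sides is undetermined and cannot be called; such miRNAs stay in the number tested. Comparisons at a single month were fitted on that month's libraries. Averages over months and month comparisons were fitted on all libraries, and month comparisons gave equal weight to the 8 metals with all 4 months. DESeq2 1.42.0, RLE size factors, no filter, a block for the replicate number, leaving out libraries under 20000 counts and leaving out each library were the alternatives. An additive fit and the halving of miR-7a-5p counts were added after the data were seen. Scripts were tested on simulated counts. The ratio of miR-375-3p to miR-217-5p was computed in libraries with at least 10 counts of both together and compared with two-sided permutation tests (100000 resamples, labels permuted within month or within metal).

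The members and the lists were chosen with earlier results of these data known. The miRNAs named besides them are, by rule, the 3 with the highest Spearman rho of log2 CPM to each member detected in 20 or more libraries, over libraries with more than 20000 counts, and those of the companion and marker lists. Intervals and thinned shares cover counting error only.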

Additional observations from a re-analysis of the deposited data

Results flagged for a closer look

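A library was marked where it stood apart in a group of 4: its gap to the nearest library, divided by the group's whole range, exceeded Dixon's 95% critical value. Chance marks about 1 in 20 groups, and each miRNA had 33 groups of 4. All values below are CPM.

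miR-375-3p was marked in 3 groups. Co replicate 1 at 1 month was at 0 CPM beside 461, 468 and 503 CPM; that library had 12213 counts in all. Pb replicate 2 at 6 months was at 2817 CPM beside 9.64, 0 and 0 CPM. Ta replicate 4 at 1 month was at 1123 CPM beside 292, 384 and 420 CPM.

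miR-7a-5p was marked in 7 groups. In 5 of them 1 library alone had a count: Al replicate 4 (655 CPM), Ta replicate 4 (438 CPM) and W replicate 2 (207 CPM) at 3 months, and DU replicate 1 (78.1 CPM) and Pb replicate 2 (1284 CPM) at 6 months. The Pb library is the one that stood apart for miR-375-3p. The other 2 were Ni replicate 1 at 6 months, at 3867 CPM beside 92.0, 261 and 0 CPM, and Ni replicate 4 at 1 month, at 108 CPM beside 136, 140 and 141 CPM.

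miR-217-5p was marked in 16 groups, 14 of them groups in which 1 library alone had a count, which meets this measure by itself. At 1 month these were Al replicate 3 (3.83 CPM), Cu replicate 3 (7.05 CPM), DU replicate 1 (20.7 CPM), Pb replicate 4 (39.4 CPM), W replicate 2 (18.4 CPM) and Ta replicate 4 (51.8 CPM). At 3 months they were Al replicate 2 (429 CPM) and Cu replicate 2 (9.60 CPM). At 6 months they were Al replicate 2 (156 CPM), Co replicate 2 (73.0 CPM) and Cu replicate 4 (41.5 CPM). At 12 months they were Fe replicate 2 (5.65 CPM), W replicate 2 (39.1 CPM) and Ta replicate 1 (70.5 CPM). The remaining 2 were Fe replicate 1 at 1 month, at 49.98 CPM beside 5.55, 0 and 0 CPM, and Ni replicate 2 at 6 months, at 288 CPM beside 23.3, 10.3 and 0 CPM. The Ta library at 1 month is also the one that stood apart for miR-375-3p.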

How the results depend on the processing

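No call of a metal against Ta was made by edgeR for any of the 3 miRNAs under RLE size factors, without a filter, with the replicate block or without libraries under 20000 counts. DESeq2 gave 3 calls of miR-217-5p (Fe, Pb and DU at 6 months) and 2 of miR-7a-5p in the 31 comparisons, and 2 of miR-7a-5p in the 8 averages. Leaving out 1 library gave between 0 and 1 call of miR-375-3p in the 31 comparisons and in the 8 averages (the 1 without Pb replicate 2 of 6 months). It gave between 0 and 0 for the other 2 miRNAs, where 6 of the 8 averages of miR-217-5p could not be tested (a group without a count on both sides).

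For miR-375-3p the log2 fold change at 3 against 1 month was called under all alternatives but Ta alone (0.67), and between 1.23 and 1.44 without 1 library. At 6 against 3 months it was called with RLE size factors (-1.63), DESeq2 (-1.65), without libraries under 20000 counts (-1.12) and in the additive fit (-1.06), was 0.13 in Ta alone, and lay between -1.89 and -0.83 without 1 library (34 of 62 called). At 12 against 6 months that range was 0.57 to 1.61. At 12 against 1 month it was called with RLE (1.12), DESeq2 (1.12), the replicate block (1.08) and the additive fit (1.00), and ranged from 0.93 to 1.12 without 1 library. The 8 removals that were called there were replicate 2 of Fe, replicate 2 of Pb and replicate 4 of Ta at 1 month, and replicate 1 of Ta, replicate 2 of Fe, replicate 1 of Al, replicate 3 of W and replicate 4 of DU at 12 months.

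For miR-7a-5p at 3 against 1 month the call was lost in Ta alone (-0.10) and with RLE (-2.01), and the sign turned in the additive fit (0.060); without 1 library it lay between -3.64 and -2.18. At 6 against 3 months it was -0.51 in Ta alone, 4.27 with DESeq2 (called) and -0.27 in the additive fit, and between 1.17 and 2.70 without 1 library in the 60 fits of 62 that were determined. At 12 against 6 months the range was 0.71 to 2.26. At 12 against 1 month it was -0.021 without a filter and -0.044 without libraries under 20000 counts, with a range of -0.11 to 0.20. With its counts halved, every comparison of miR-7a-5p kept its direction and its side of the threshold.

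For miR-217-5p at 3 against 1 month Ta alone gave -6.62, not called, and the range without 1 library was -4.82 to -3.25 in 58 determined fits of 64. At 6 against 3 months DESeq2 gave 6.49 and the additive fit 3.17, both called. At 12 against 6 months it was -0.86 in Ta alone and 4.92 with DESeq2 (called). At these 2 steps edgeR's contrast was undetermined with all libraries and without each. At 12 against 1 month it was -1.54 with DESeq2 and -0.11 with the replicate block, with a range of -0.40 to 0.84 in 58 determined fits, below 0 without Ta replicate 1 or W replicate 2 of 12 months. The difference of all metals pooled from Ta at 6 months lay between -4.64 and -3.14 without 1 library, and was undetermined without Ta replicate 1. The correlation of miR-217-5p with miR-7a-5p was -0.25 in the 28 libraries with both. None of the 12 tests of the ratio of miR-375-3p to miR-217-5p was called by permutation under its alternatives or without a replicate number (0 calls each; unadjusted p under 0.05 in 1 of 12 in the reported setting).

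Same-numbered libraries deviated together in every pair in 2 of 31 comparisons, so the numbers were not taken to pair samples; apart from the values above, the replicate block changed no call. The causes were not tested, with these exceptions. In single-month fits other than 6 months, the filter can keep more miRNAs without 1 library, since the smallest group is then smaller. Fits on all libraries or on 6 months already include groups of 3 libraries, W and Ta at 6 months. There the smallest group shrinks only if a library of W or Ta at 6 months is left out. Groups at 0 make fitted means of miR-7a-5p and miR-217-5p depend on the prior count. RLE rested on 15 miRNAs without a 0 at 3 months. Of the 33 counts of miR-217-5p, 11 were 10 or fewer, and counts of 1 are not in the table.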
